A study of Homo sapiens with 6 samples.

Results

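The genes described here are 10 enzymes of fatty acid synthesis and acyl-CoA activation in MUM2B, a human cell line that the labels place in melanoma: ACLY, ACACA, ACACB, FASN, ACSS2, ACSL1, ACSL3, ACSL4, ACSL5 and SLC27A4. They were found by their gene symbols among the 58735 genes listed for each library, and each symbol matched a single row. The tested cells stably overexpressed LACTB, a mitochondrial protein related to bacterial beta-lactamases and reported as a tumour suppressor. The control cells, called EV here, stably carried an empty vector. Each group held 3 RNA-seq libraries of total RNA from cells grown in RPMI medium with serum and collected without further treatment. Whether each line was 1 clone or a pool, and whether replicates were separate cultures, is not given in the sources used here. The p-values therefore set each group difference against the spread among libraries of a group, and that spread may be technical.

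Fatty acid synthesis begins with citrate that leaves the mitochondria. ACLY splits this citrate into acetyl-CoA, ACSS2 makes the same acetyl-CoA from acetate, the acetyl-CoA carboxylases ACACA and ACACB turn it into malonyl-CoA, and FASN joins these units into palmitate. Free fatty acids, made in the cell or taken up, enter further metabolism only after an acyl-CoA synthetase has joined them to coenzyme A, the step of the ACSL enzymes and of the fatty acid transport protein SLC27A4. ACLY, ACACA, FASN and ACSS2 are known as targets of the sterol regulatory element-binding proteins, transcription factors that are released from the endoplasmic reticulum when sterols are low.

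The libraries held 16980074 to 17823148 reads in genes in LACTB cells and 17829875 to 18397035 in EV cells. For a gene with 2 kb of exon, 3 reads were then worth 0.0827 to 0.0872 FPKM, the deposited unit (fragments per kilobase of exon, at a common library size). LACTB itself stood at 161 to 174 FPKM in LACTB libraries, against 3.39 to 4.71 FPKM in EV libraries, so all 6 libraries matched their labels. All 9 melanocyte markers lay under 1 FPKM on average (MITF at 0.826 to 0.923 FPKM in LACTB libraries and 0.586 to 0.742 FPKM in EV libraries), and S100B was listed at 0 in every library, so the labelled lineage is not visible in its defining transcripts. The 6 leukocyte, 5 adipocyte and 6 fibroblast markers also averaged under 1 FPKM; adipocyte markers summed to 0.267 to 0.656 FPKM in LACTB libraries and 0.330 to 0.458 FPKM in EV libraries, with CIDEC and LEP listed at 0. EV replicate 3 differed most from its group, with 3.60% of its reads from the mitochondrial genome, against 4.65% to 5.04% in LACTB libraries and 5.54% and 5.62% in the other EV libraries.

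LACTB cells had lower levels of most of the synthesis and activation genes. Of the 9 members that passed the filter of a mean of at least 1 FPKM, 6 fell (FASN, ACSL3, ACACA, ACSL1, ACLY and ACSL4) and 2 rose (ACSS2 and ACSL5), while SLC27A4 passed no threshold. Across all 11875 tested genes, 17.2% fell and 14.8% rose (32% either way; limma on log2(FPKM + 1), Benjamini-Hochberg adjusted p under 0.05); as TPM, with 16070 genes tested, 1295 fell and 1615 rose. The median difference of the 9 members was -0.26 on the log2(FPKM + 1) scale, beside -0.01 over all tested genes. The 6 members that fell and the 2 that rose had no overlap between the groups, as 25.1% of all tested genes had toward lower and 22.3% toward higher. Only FASN, ACSL3 and ACACA among the members lay beyond the range from the 5th to the 95th percentile of all tested genes (-0.42 to 0.43). With each library left out in turn, 5 to 6 members fell and 0 to 1 rose; the libraries on which the less firm calls rest are given with each gene. All these values are bulk RNA levels, in which fewer cells that express a gene and less RNA per cell cannot be told apart.

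**Figure D1:**
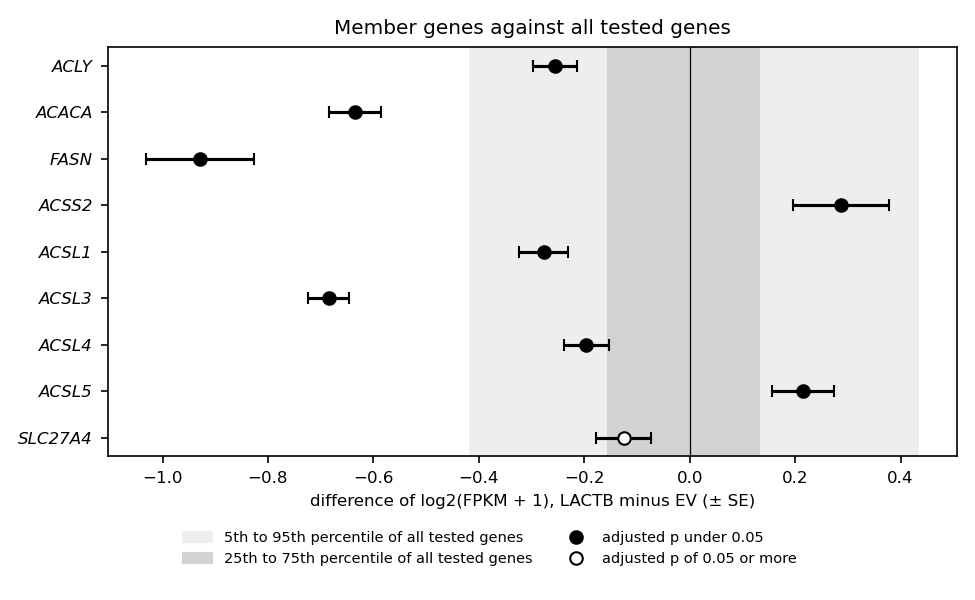
Difference of log2(FPKM + 1) between LACTB and EV cells for the 9 tested members (points, with bars of 1 SE), over the ranges of all 11875 tested genes (grey bands). FASN, ACSL3 and ACACA lie left of the 5th percentile of -0.42, and ACSS2 and ACSL5 lie to the right of 0 but inside the 95th percentile of 0.43.

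Because several members moved together, the 250 bases before a RefSeq gene start (GRCh38.p14) were read for 4 of them: ACSL3, ACACA and ACLY, which fell, and ACSL5, which rose. Of the 10 members, 9 had an entry in the promoter table, with 19 starts in all. FASN had none, so its promoter was not searched. The windows are chr2:222860786-222861035 on the plus strand for ACSL3, chr17:37406837-37407086 on the minus strand for ACACA, chr17:41919023-41919272 on the minus strand for ACLY and chr10:112375018-112375267 on the plus strand for ACSL5, each the first start listed for its gene. Sequences run 5′ to 3′ toward the start. Capitals mark CCAAT boxes (CCAAT or its reverse ATTGG) and GC boxes (GGGCGG or its reverse CCGCCC).
ACSL3: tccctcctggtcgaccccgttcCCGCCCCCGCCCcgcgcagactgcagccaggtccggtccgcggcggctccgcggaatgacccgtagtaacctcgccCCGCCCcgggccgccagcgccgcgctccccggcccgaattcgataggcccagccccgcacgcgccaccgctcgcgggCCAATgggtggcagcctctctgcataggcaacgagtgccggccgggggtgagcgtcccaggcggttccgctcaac
ACACA: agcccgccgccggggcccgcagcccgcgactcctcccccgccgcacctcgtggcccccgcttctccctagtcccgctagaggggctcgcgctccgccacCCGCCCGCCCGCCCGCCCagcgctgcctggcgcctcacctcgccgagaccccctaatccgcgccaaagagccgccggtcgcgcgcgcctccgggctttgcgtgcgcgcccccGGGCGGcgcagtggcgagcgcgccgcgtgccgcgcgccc
ACLY: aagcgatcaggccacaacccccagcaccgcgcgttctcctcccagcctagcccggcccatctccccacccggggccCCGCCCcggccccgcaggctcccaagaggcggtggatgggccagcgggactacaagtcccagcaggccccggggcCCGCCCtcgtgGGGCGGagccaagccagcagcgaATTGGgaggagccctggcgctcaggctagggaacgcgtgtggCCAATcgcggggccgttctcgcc
ACSL5: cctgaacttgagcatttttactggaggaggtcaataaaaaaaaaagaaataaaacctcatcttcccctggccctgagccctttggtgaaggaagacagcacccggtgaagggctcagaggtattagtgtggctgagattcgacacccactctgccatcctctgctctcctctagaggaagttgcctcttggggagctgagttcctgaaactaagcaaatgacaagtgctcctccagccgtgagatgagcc
The ACSL3 window held 1 CCAAT box, 75 bases before the start, and 3 GC boxes. The ACLY window held 2 CCAAT boxes and 3 GC boxes, and the ACACA window held 5 GC boxes, of which 4 overlap in a run, and no CCAAT box. The ACSL5 window held neither motif. The first window of ACSS2, which rose, held 1 of each, while the ACSL4 window and the first ACSL1 window, of genes that fell, held GC boxes but no CCAAT box. Among all 19 member windows, 8 held a CCAAT box and 12 a GC box. Of the 250 bases, CG pairs began at 3 in ACSL5, against 35 in ACSL3, 45 in ACACA and 23 in ACLY. The count also varied between starts of a gene. The first ACSS2 window had 3 and its other window 18, and another ACACA window had 4. Among 35116 promoter windows of the same length, 32% held a CCAAT box and 42.6% a GC box. The sterol regulatory element, searched as TCACNCCAC on both strands, was found in 0.883% of those windows and in none of the 4 printed; among all 19 member windows it stood in 1, an alternative start of ACSL1. These matches describe letters only, and gene-level FPKM does not tell which start is in use.

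ACLY (ENSG00000131473, GRCh38 chromosome 17, 41866908 to 41930542, minus strand), the cytosolic enzyme that makes acetyl-CoA from citrate, had the highest level of the 10 genes in both groups, above 95.4% of tested genes in LACTB cells and 96.2% in EV cells. Its level was 68.1, 68.1 and 65.8 FPKM in LACTB replicates 1 to 3, against 80.6, 83.3 and 77.8 FPKM in EV replicates 1 to 3. All 3 LACTB libraries lay below all 3 EV libraries. ACLY fell by 16.5%, to 67.3 ± 1.29 FPKM in LACTB cells, against 80.6 ± 2.73 FPKM in EV cells (SD, n = 3 each), a log2 difference of -0.26 (SE 0.041; limma, adjusted p = 0.00416).

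ACACA (ENSG00000278540, chromosome 17, 37084988 to 37406818, minus strand), the cytosolic acetyl-CoA carboxylase that commits acetyl-CoA to fatty acid synthesis, stood at 5.40, 5.21 and 5.30 FPKM in LACTB replicates 1 to 3, against 8.36, 8.77 and 9.24 FPKM in EV replicates 1 to 3. The LACTB libraries were close together and well below every EV library. The fall was 39.7%, on 3676 reads summed over LACTB libraries and 6150 over EV libraries, with a log2 difference of -0.64 (SE 0.049; limma, adjusted p = 0.000176); 207 of the 11875 tested genes fell further.

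ACACB (ENSG00000076555, chromosome 12, 109116595 to 109268226, plus strand), the carboxylase at the outer mitochondrial membrane whose malonyl-CoA restrains fatty acid oxidation, was barely expressed. Its level was 0.198, 0.180 and 0.280 FPKM in LACTB replicates 1 to 3, against 0.219, 0.156 and 0.241 FPKM in EV replicates 1 to 3. The groups overlapped, and the gene did not pass the filter. The 170 reads in LACTB libraries and 160 in EV libraries gave a ratio of 1.07 after scaling, and the exact 95% interval, for counting error alone, was 0.858 to 1.34. The carboxylase transcripts were therefore mostly ACACA in both groups: the log2 ratio of ACACA to ACACB was 4.62 ± 0.331 in LACTB cells and 5.44 ± 0.323 in EV cells (SD, n = 3 each).

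FASN (ENSG00000169710, chromosome 17, 82078333 to 82098332, minus strand), the multidomain synthase that makes palmitate, was reduced most. It stood at 31.3, 34.4 and 36.6 FPKM in LACTB replicates 1 to 3, against 70.2, 72.0 and 56.1 FPKM in EV replicates 1 to 3. The LACTB libraries all lay below the EV libraries, of which replicate 3 was the lowest. FASN fell by 48.4%, to 34.1 ± 2.65 FPKM in LACTB cells, against 66.1 ± 8.72 FPKM in EV cells (SD, n = 3 each), a log2 difference of -0.93 (SE 0.102; limma, adjusted p = 0.000843); without EV replicate 3 the difference was -1.04. Only 70 tested genes fell further. Set against ACLY, the enzyme that feeds it, FASN was also lower: the log2 ratio of FASN to ACLY was -0.98 ± 0.136 in LACTB cells and -0.29 ± 0.155 in EV cells, without overlap (exact 2-sided permutation test, p = 0.1, the smallest that 3 against 3 allow). Taken as a sum, ACLY, ACACA and FASN made 105 to 108 FPKM in LACTB libraries, against 143 to 164 FPKM in EV libraries.

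**Figure D2:**
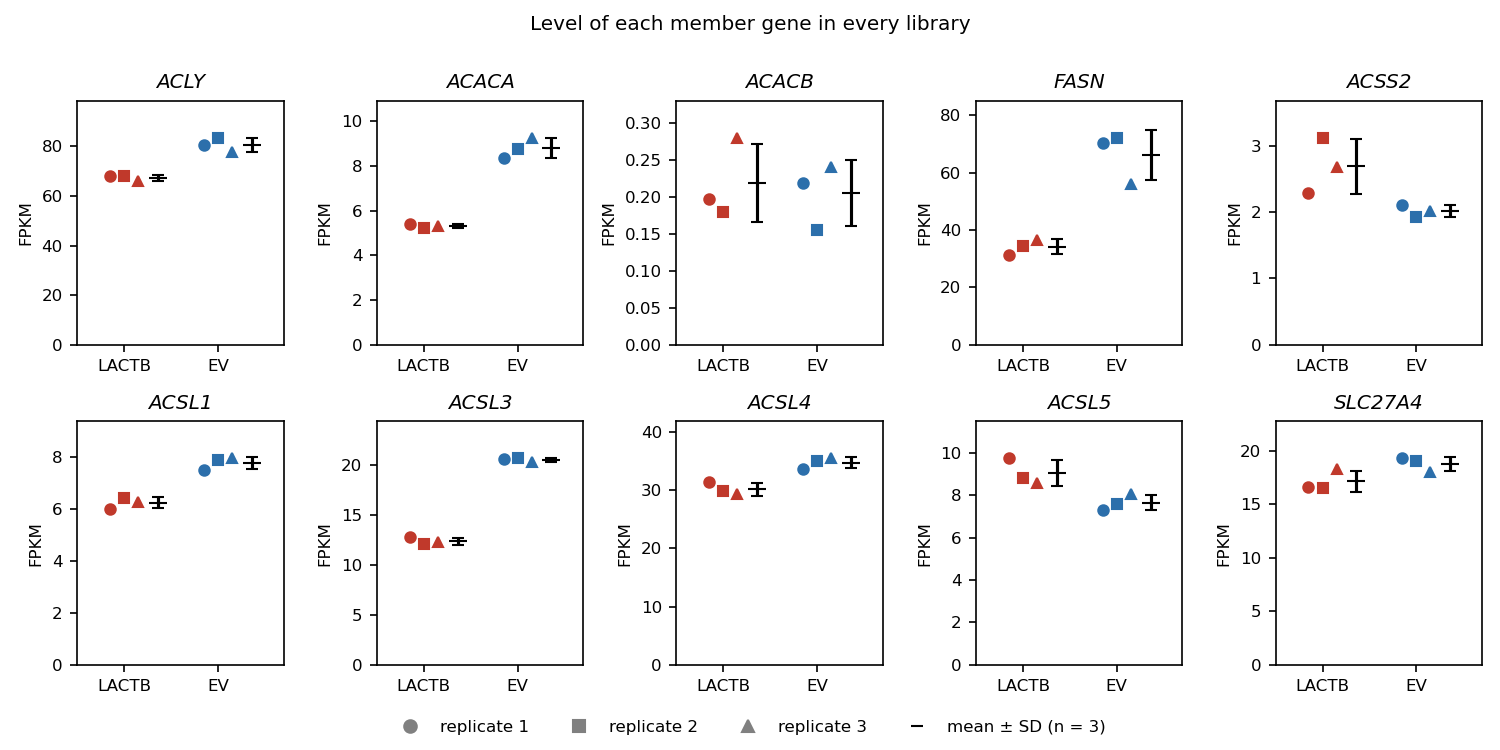
FPKM of each member in every library, with LACTB libraries in red and EV libraries in blue, a marker shape per replicate number, and the mean with SD at the right of each group; every axis starts at 0. ACLY, ACACA, FASN, ACSL1, ACSL3 and ACSL4 have all LACTB points below all EV points, ACSS2 and ACSL5 have them above, and ACACB and SLC27A4 overlap.

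ACSS2 (ENSG00000131069, chromosome 20, 34872146 to 34927962, plus strand), the nucleocytosolic acetyl-CoA synthetase that uses acetate, went the other way from ACLY but at a low level. Its values were 2.29, 3.12 and 2.68 FPKM in LACTB replicates 1 to 3, against 2.11, 1.92 and 2.02 FPKM in EV replicates 1 to 3. LACTB replicate 1 lay only just above EV replicate 1, on 223 and 200 reads. ACSS2 rose by 33.6%, a log2 difference of 0.29 (SE 0.091; limma, adjusted p = 0.0495), at the edge of the threshold. The call was lost when any library other than LACTB replicate 1 was left out, with limma's adjusted p at 0.0831, 0.127 and 0.0951 without EV replicate 1, 2 or 3, and 0.141 and 0.116 without LACTB replicate 2 or 3, in a range of 0.00742 to 0.147 over all alternatives. The log2 ratio of ACSS2 to ACLY was -4.65 ± 0.226 in LACTB cells and -5.32 ± 0.101 in EV cells (SD, n = 3 each), so ACLY remained far the more abundant of the acetyl-CoA sources.

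The ACSL genes encode the long-chain acyl-CoA synthetases. ACSL3 (ENSG00000123983, chromosome 2, 222860934 to 222944639, plus strand), an isoform of the endoplasmic reticulum and of lipid droplets, had the smallest adjusted p of all members. It stood at 12.8, 12.1 and 12.3 FPKM in LACTB replicates 1 to 3, against 20.6, 20.7 and 20.3 FPKM in EV replicates 1 to 3. Both groups were tight and far apart. ACSL3 fell by 39.6%, a log2 difference of -0.68 (SE 0.039; limma, adjusted p = 4.78e-05), and 176 tested genes fell further.

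ACSL4 (ENSG00000068366, chromosome X, 109624244 to 109733403, minus strand), which prefers arachidonate and other polyunsaturated fatty acids and is known for its part in ferroptosis, was the most abundant isoform. It stood at 31.4, 29.8 and 29.3 FPKM in LACTB replicates 1 to 3, against 33.7, 35.0 and 35.5 FPKM in EV replicates 1 to 3. The fall of 13.1% was the smallest among the members called (log2 difference -0.20, SE 0.043; limma, adjusted p = 0.0138), and the call was lost without LACTB replicate 2 (adjusted p = 0.0589) or 3 (adjusted p = 0.0511), in a range of 0.00609 to 0.111 over all alternatives.

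ACSL1 (ENSG00000151726, chromosome 4, 184755595 to 184826818, minus strand), an isoform known for fatty acid activation at mitochondria and the endoplasmic reticulum, stood at 6.0, 6.43 and 6.24 FPKM in LACTB replicates 1 to 3, against 7.48, 7.85 and 7.93 FPKM in EV replicates 1 to 3. All LACTB libraries lay below all EV libraries. It fell by 19.7% (log2 difference -0.28, SE 0.046; limma, adjusted p = 0.00473).

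ACSL5 (ENSG00000197142, chromosome 10, 112374018 to 112428380, plus strand), an isoform of mitochondria and the endoplasmic reticulum, was the ACSL gene that rose. It stood at 9.73, 8.82 and 8.58 FPKM in LACTB replicates 1 to 3, against 7.31, 7.58 and 8.04 FPKM in EV replicates 1 to 3. The groups did not overlap, though LACTB replicate 3 and EV replicate 3 were close. The rise was 18.3% (log2 difference 0.22, SE 0.059; limma, adjusted p = 0.0302), and the call was lost without EV replicate 1 or 2 (adjusted p = 0.0899 and 0.0794) or without LACTB replicate 1 or 2 (adjusted p = 0.0734 and 0.0704), in a range of 0.00851 to 0.0905 over all alternatives. ACSL5 shares 144 exon bases (3.40% of its exon length) with ZDHHC6 on the opposite strand, and the use of strand in the counting is not given in the sources used here. ZDHHC6 stood at 11.5 ± 1.02 FPKM in LACTB cells and 13.0 ± 0.878 FPKM in EV cells (SD, n = 3 each; limma, adjusted p = 0.121), and its part in the ACSL5 value was not tested. The other genes that share exon bases with ACLY, ACSL3, ACSL4 or ACSL5 averaged 0 to 0.276 FPKM.

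SLC27A4 (ENSG00000167114, chromosome 9, 128340646 to 128361470, plus strand), the fatty acid transport protein that also has acyl-CoA synthetase activity toward long and very long chains, stood at 16.7, 16.5 and 18.3 FPKM in LACTB replicates 1 to 3, against 19.3, 19.0 and 18.1 FPKM in EV replicates 1 to 3. LACTB replicate 3 lay above EV replicate 3, so the groups overlapped. The log2 difference was -0.12 (SE 0.052; limma, adjusted p = 0.113).

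Within the ACSL family, ACSL3 held a smaller share of the transcripts in every LACTB library than in any EV library, and ACSL4 and ACSL5 a larger one. The level of ACSL5 was higher in LACTB cells, but that of ACSL4 was lower, with means of 30.2 FPKM in LACTB cells and 34.7 FPKM in EV cells. Over ACSL1, ACSL3, ACSL4, ACSL5 and ACSL6, the last of which was listed at 0 in every library, the summed level was 60.0, 57.2 and 56.4 FPKM in LACTB replicates 1 to 3, against 69.1, 71.1 and 71.7 FPKM in EV replicates 1 to 3. ACSL3 made up 21.4% ± 0.362 of this sum in LACTB cells and 29.1% ± 0.770 in EV cells. ACSL5 made up 15.6% ± 0.532 in LACTB cells and 10.8% ± 0.342 in EV cells, and ACSL4 52.2% ± 0.260 in LACTB cells and 49.1% ± 0.350 in EV cells (SD, n = 3 each). For these 3 isoforms and for the sum the groups did not overlap. The share of ACSL1 was 10.8% ± 0.663 in LACTB cells and 11.0% ± 0.125 in EV cells, with overlap. Each of 11 sums, shares and ratios was compared with an exact 2-sided permutation test, which cannot go below p = 0.1 with 3 against 3; all except the ACSL1 share (p = 0.9) reached that value (Benjamini-Hochberg adjusted 0.11).

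**Figure D3:**
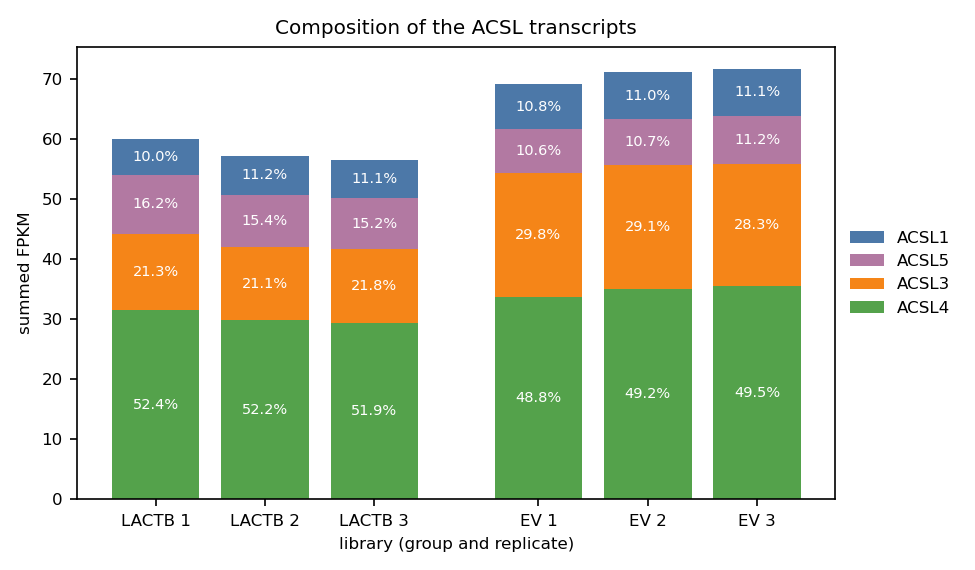
Summed FPKM of the 4 detected ACSL genes in each library (stacked bars, LACTB libraries at the left), with each gene's share of the sum printed in its segment. The bars reach 56.4 to 60.0 FPKM in LACTB libraries and 69.1 to 71.7 FPKM in EV libraries, and the ACSL3 segment holds 21.1% to 21.8% in LACTB libraries and 28.3% to 29.8% in EV libraries.

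The order of the levels, which FPKM allows to be compared between genes per exon length, differed in the middle of the range. In LACTB cells the order was ACLY, FASN, ACSL4, SLC27A4, ACSL3, ACSL5, ACSL1, ACACA, ACSS2 and ACACB, and only the neighbours FASN and ACSL4 overlapped among libraries. In EV cells the order was ACLY, FASN, ACSL4, ACSL3, SLC27A4, ACACA, ACSL1, ACSL5, ACSS2 and ACACB, and only ACSL1 and ACSL5 overlapped. ACSL5 thus stood above both ACSL1 and ACACA in LACTB cells, and beside or below them in EV cells. In reads, the 10 genes took 0.118% to 0.121% of all reads in genes in LACTB libraries, against 0.160% to 0.173% in EV libraries.

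The remaining acyl-CoA synthetases were little expressed. Of 20 further family members, 5 passed the filter and 6 were listed at 0 in every library. ACSF2, a mitochondrial medium-chain enzyme, fell to 2.49 ± 0.214 FPKM in LACTB cells, against 3.10 ± 0.0802 FPKM in EV cells (SD, n = 3 each; limma, adjusted p = 0.0334). Its call was lost without a filter, as TPM and with the replicate block (limma, adjusted p = 0.0912, 0.0701 and 0.0696). It was also lost when any library other than LACTB replicate 2 was left out, with limma's adjusted p at 0.0687 and 0.0933 without LACTB replicate 1 or 3, and 0.0814, 0.0954 and 0.0568 without EV replicate 1, 2 or 3. The other 4, ACSF3, ACSS1, AACS and SLC27A1, passed no threshold. The median log2 difference of the 5 was -0.12, and 1 of them was called, beside 32% of all tested genes.

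Genes that supply citrate and NADPH to the pathway changed in both directions, with 6 of 11 lower and 4 higher (median log2 difference -0.18). Over all tested genes, 17.2% were lower and 14.8% higher. SLC25A1, which exports citrate from mitochondria, fell to 14.1 ± 1.04 FPKM in LACTB cells, against 25.9 ± 1.30 FPKM in EV cells (limma, adjusted p = 0.000162), and the mitochondrial malic enzyme ME3 fell to 7.19 ± 0.331 FPKM in LACTB cells, against 10.2 ± 0.306 FPKM in EV cells. The cytosolic malic enzyme ME1 rose to 11.7 ± 0.853 FPKM in LACTB cells, against 8.07 ± 0.316 FPKM in EV cells (SD, n = 3 in each group; limma, adjusted p = 0.00129). In these cells, then, the citrate exporter was lower together with ACLY, ACACA and FASN. Sources of NADPH for the synthase went both ways: ME1 was higher, whereas the cytosolic isocitrate dehydrogenase IDH1 was 17.5% lower (limma, adjusted p = 0.00689).

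Among 29 tested regulators of fatty acid synthesis, 5 rose and 6 fell, with a median of -0.005. These counts are near the shares over all tested genes, of which 14.8% rose and 17.2% fell. SREBF1, which encodes the sterol regulatory element-binding protein best known for fatty acid genes, stood at 5.26, 5.16 and 5.37 FPKM in LACTB replicates 1 to 3, against 8.23, 8.24 and 6.51 FPKM in EV replicates 1 to 3, and fell by 31.3% (limma, adjusted p = 0.00693). Like FASN, SREBF1 was lowest among EV libraries in replicate 3. SREBF2, its sterol-directed paralogue, was 39.8% lower and INSIG1, which helps to retain both factors in the endoplasmic reticulum, 84.8% lower (limma, adjusted p = 0.000342 and 2.93e-06). SCAP, their escort to the Golgi, stood at 10.7 ± 0.517 FPKM in LACTB cells and 11.1 ± 1.2 FPKM in EV cells (limma, adjusted p = 0.749). TRIB3, a pseudokinase described to promote the breakdown of acetyl-CoA carboxylase in mouse fat tissue, rose to 53.9 ± 2.74 FPKM in LACTB cells, against 20.6 ± 1.23 FPKM in EV cells, and NR1H2, the liver X receptor beta, to 18.8 ± 0.631 FPKM in LACTB cells, against 14.7 ± 0.618 FPKM in EV cells (SD, n = 3 each). RNA levels do not show the processing or activity of these proteins.

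Steps after synthesis were examined in the same way. Their counts stand beside 17.2% fallen and 14.8% risen over all tested genes. Of 16 tested desaturases and elongases, 7 fell and 2 rose (median log2 difference -0.19); SCD, which desaturates stearate and palmitate, fell by 80.6% and FADS1, the delta-5 desaturase, by 40.7%, while FADS3 rose by 35.4% and ELOVL7 by 67.6% (limma, adjusted p at most 0.00445 for these genes). Of 12 tested thioesterases and acyl-CoA binding proteins, 4 fell and none rose, with a median of 0.001. The number that fell was 2 without LACTB replicate 1, 2 or 3 or EV replicate 1 or 2, and 1 rose without LACTB replicate 3. DBI, the acyl-CoA binding protein, fell to 14.9 ± 1.29 FPKM in LACTB cells, against 25.7 ± 1.92 FPKM in EV cells, and ACBD7, a protein of the same family, fell by 48.8% (limma, adjusted p = 0.000646 and 0.000739). Of 5 tested uptake and binding genes, 3 fell and 1 rose (median -0.29). CAV1, caveolin of the plasma membrane, fell by 29.2% (limma, adjusted p = 0.000214), and VLDLR rose to 2.81 ± 0.0915 FPKM in LACTB cells, against 1.42 ± 0.186 FPKM in EV cells (SD, n = 3 each; limma, adjusted p = 0.00104).

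The cell holds a separate mitochondrial route of fatty acid synthesis, which makes the precursor of lipoic acid. Of its 8 tested genes, 1 rose and 1 fell, with a median log2 difference of 0.07. Such counts do not set the route apart from all tested genes, of which 14.8% rose and 17.2% fell. AASDHPPT, which attaches the phosphopantetheine arm to acyl carrier proteins, FASN included, rose to 11.2 ± 0.294 FPKM in LACTB cells, against 6.12 ± 0.220 FPKM in EV cells (limma, adjusted p = 5.11e-05). CBR4, a subunit of the mitochondrial ketoacyl reductase, fell to 3.22 ± 0.366 FPKM in LACTB cells, against 5.09 ± 0.629 FPKM in EV cells (SD, n = 3 each; limma, adjusted p = 0.00613). The difference between the cytosolic and mitochondrial routes was not itself tested.

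FASN had the largest difference of the members, and its profile over the 6 libraries was compared with those of all tested protein-coding genes by Euclidean distance of centred log2(FPKM + 1) values. The 5 nearest were LRRC20 (distance 0.196), FRMD5 (0.215), SLC25A1 (0.225), SIGLEC15 (0.229) and KRT80 (0.238). SLC25A1 stood at 12.9, 14.3 and 15.0 FPKM in LACTB replicates 1 to 3, against 27.1, 26.1 and 24.5 FPKM in EV replicates 1 to 3. With 2 groups of 3 libraries, such distances say little beyond the size of the group difference.

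The calls differed in how firmly they held. ACLY, ACACA, FASN, ACSL1 and ACSL3 kept their call under each of 17 alternatives in scaling, filter, model or libraries, with limma's adjusted p at most 0.037. ACSS2, ACSL4 and ACSL5 lost theirs under some of them.

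**Figure D4:**
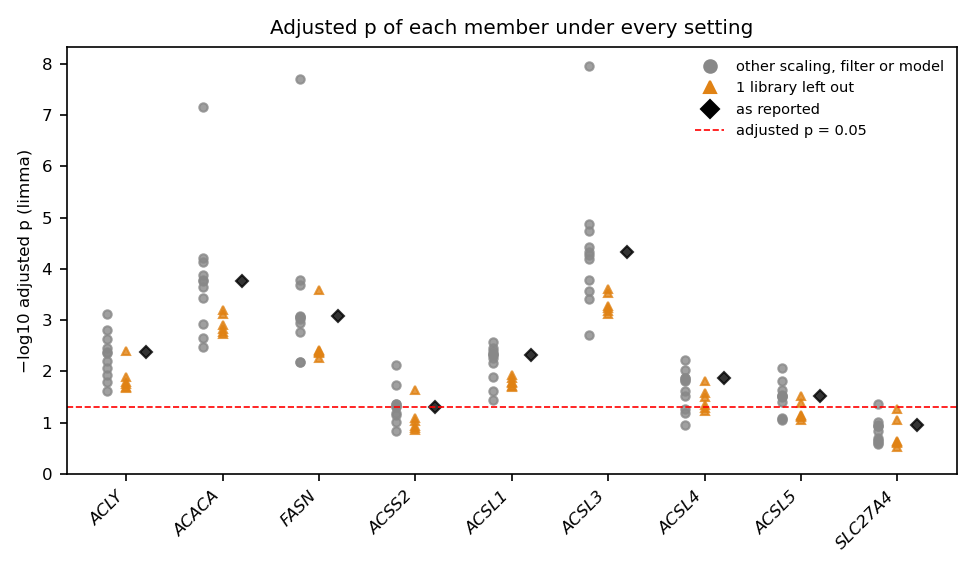
Limma's adjusted p, as −log10, for each tested member as reported (diamonds), under other scalings, filters or models (circles) and with 1 library left out (triangles); the dashed line marks 0.05. ACLY, ACACA, FASN, ACSL1 and ACSL3 stay above the line at every setting, ACSS2, ACSL4 and ACSL5 cross it, and SLC27A4 lies above it only with library weights (0.0439).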

How the data were processed

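RNA sequencing covered 6 libraries of MUM2B cells, 3 overexpressing LACTB and 3 with an empty vector (EV). The authors deposited FPKM values for 58735 genes, 1 file per library; GRCh38 (hg38), featureCounts 1.5.0-p3, HISAT2 2.0.5 and DESeq2 1.16.1 are named, with no roles, per the submitters' processing notes. Not given in the sources used here are trimming, strand, multi-mapping and annotation release. All gene IDs matched GENCODE 29, whose exon lengths turned 100% of FPKM values above 0 into whole reads (tolerance 0.1 reads), which gave the depths.

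The 11875 genes that averaged 1 FPKM or more were tested with limma 3.58.1 in R 4.3.3 (lmFit, eBayes, variance trend) on the log2(FPKM + 1) scale, with Benjamini-Hochberg adjustment over all of them and calls at an adjusted p under 0.05. A fold change on this scale understates the change of low genes; percent changes are from group means of FPKM. Sums, shares and ratios used exact permutation tests in Python 3.11.15. Replicates of a group differed by more than sampling noise (chi-square of 1.97 to 11.2 per degree of freedom), so each library counted as 1 sample. The fit was tested on simulated data. In that simulation no library was set to differ from its group, so it does not cover calls that rest on single libraries.

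The fit was repeated with each library left out, with a replicate block, with library weights, with voom on recovered reads, with robust or trendless eBayes, with quantile, median-of-ratios or TPM scaling, with a pseudocount of 0.1, and with no filter or one of 5 FPKM. Members, lists and tests were chosen with earlier results of these data known. Besides the members, up to 2 risen and 2 fallen genes of each list with the smallest adjusted p, LACTB and the regulators SREBF1, SREBF2, SCAP and INSIG1 were named by rule; some genes so named are not reported here. Promoter sequences are RefSeq's (GRCh38.p14).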

Additional observations from a re-analysis of the deposited data

How the results depend on the processing

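The counts of members that fell ran from 5 to 7 over 17 alternatives. ACLY, ACACA, FASN, ACSL1 and ACSL3 kept direction and call under all of them. None of the 9 tested members changed direction in an alternative that tested it; ACACB had no call to compare. The number of members that rose was 2 as reported, 1 at a mean of at least 5 FPKM (where ACSS2 was not tested) or with quantile normalization, and 0 without a filter, as TPM or with the replicate block, and 0 to 1 with single libraries left out. The log2 difference of ACSS2 lost its call at 0.29 without a filter, 0.39 as TPM and 0.26 with quantile normalization (limma, adjusted p = 0.147, 0.0646 and 0.0699). It ran from 0.21 to 0.37 with single libraries left out, and the highest, without LACTB replicate 1, kept the call (limma, adjusted p = 0.0233). That of ACSL5 lost its call at 0.22 without a filter and 0.26 as TPM (limma, adjusted p = 0.0812 and 0.0848), and ran from 0.17 to 0.25 with single libraries left out, with the call kept without EV replicate 3 or LACTB replicate 3. That of ACSL4 lost its call at -0.18 as TPM and -0.14 with quantile normalization (limma, adjusted p = 0.111 and 0.0545), and ran from -0.22 to -0.18 with single libraries left out, with the call lost without LACTB replicate 2 or 3. SLC27A4 passed the threshold with library weights only, at -0.15 (limma, adjusted p = 0.0439). The difference in the ACSL1 share of the ACSL sum ran from -0.440 to 0.176 percentage points with single libraries left out, and turned positive without LACTB replicate 1. The causes of these changes were not tested. Of 238 alternative values of the 14 list counts, 209 stayed within 1.5 times the reported count.

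Same-numbered libraries did not deviate together (Pearson's r across genes of -0.126, 0.019 and -0.044 for numbers 1 to 3). These values cannot show whether same-numbered libraries were grown or prepared together, which the labels do not state. With the replicate block, 1155 genes rose and 1324 fell, against 1758 and 2038 as reported, and the differences of ACSS2 (0.29), ACSL4 (-0.20) and ACSL5 (0.22) had limma adjusted p = 0.0988, 0.0663 and 0.0905. Over all genes, 1115 rose and 1388 fell without LACTB replicate 2, and 1155 rose and 1605 fell at a mean of at least 5 FPKM. More rose than fell as TPM (1615 and 1295) and with voom on recovered reads (2345 and 1952). Depth limits ACACB most, with 41 to 73 reads per library.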
